A study of Mus musculus with 15 samples.

Results

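The Dickkopf genes (*Dkk1* to *Dkk4*) and the Kremen genes (*Kremen1* and *Kremen2*) were followed in the secondary palate of the mouse from embryonic day 13.5 to birth. They were chosen by name, and all 6 were among the 54232 genes of the deposited count table. From the first stage to the last, *Kremen1* and *Dkk3* rose, *Dkk2* and *Kremen2* fell, and no change of *Dkk1* or *Dkk4* passed the test. *Dkk2* and *Dkk3* were at about the same level per gene length at the first stage, whereas at birth *Dkk3* made up most of the Dickkopf RNA. The share of *Kremen2* in the Kremen RNA shrank alongside.

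Dickkopf proteins are secreted antagonists of canonical Wnt signalling. Wnt ligands signal by bringing a Frizzled receptor together with the co-receptor LRP5 or LRP6, and DKK1, DKK2 and DKK4 bind these co-receptors, while DKK3 is a divergent member that does not act as a typical LRP6 antagonist. Kremens are single-pass membrane receptors that bind Dickkopf proteins and can form a complex with LRP6 that is removed from the cell surface. *Dkk1* and *Dkk4* are known targets of Wnt signalling themselves, and Wnt signalling takes part in the growth, patterning and ossification of the palatal shelves.

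All libraries came from palatal shelves of wild-type mice, dissected on embryonic days 13.5 to 16.5 at intervals of a day (the stages E13.5, E14.5, E15.5 and E16.5) and on postnatal day 0 (P0), with 3 libraries per stage and 15 in all. The labels give no strain, treatment or batch, and no group carries a mutation. Each library was a pool of 3 palates, and the p-values measure only how such pools vary. The series asked how gene expression changes over palate development and how Wnt signalling takes part, and the stage comparisons below bear on the first question for these 6 genes. Because the tissue was sequenced in bulk, fewer cells of a type and less RNA per cell cannot be told apart.

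The libraries held 21.5 M to 69.0 M counts assigned to genes, with fewer at the later stages (37.1 M to 52.3 M at E16.5 and 21.5 M to 41.2 M at P0). Marker lists were counted to check the tissue. All 10 palate mesenchyme markers, such as *Osr2* and *Pax9*, were detected in every library, and their summed level was 847 to 1436 CPM at E13.5 (CPM are counts per 1e6 after scaling) and 456 to 587 CPM at P0. From E13.5 to P0, 0 of these 10 rose and 6 fell, 6 of 10 oral epithelium markers rose and 9 of 11 osteoblast and osteocyte markers rose. The summed osteoblast and osteocyte markers lay at 1320 to 2017 CPM at E13.5, at 14246 to 16511 CPM at E15.5 and at 18308 to 35348 CPM at P0. In the same comparison 8 of 10 skeletal muscle, 6 of 6 nasal epithelium, 5 of 5 macrophage, 4 of 4 tested tooth and 3 of 5 endothelium markers rose, 2 of 6 neuron markers fell, 1 of 6 cartilage markers rose and 2 fell, and 0 of 5 erythroid markers changed. What part these shifts in cell makeup had in the changes of the Dickkopf and Kremen genes was not tested.

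The promoters of 3 of the 6 genes were found in the RefSeq sequences (build GRCm38.p6), and all 3 are shown. None was found for *Dkk3*, *Dkk4* or *Kremen1*, so that no gene that rose is among them. *Dkk1* did not change by the test, and *Dkk2* and *Kremen2* fell. Each window runs 5′ to 3′ on the strand of the gene, from 250 bases before the RefSeq transcription start to 50 bases after it, and capitals mark matches to any of 3 motifs. One motif was CTTTGA, a form of the core that TCF and LEF factors bind, which reads as TCAAAG on the opposite strand. Other forms of that core were not searched or marked. The others were TATAAA, known from core promoters, and GGGCGG, known as the GC box. Each was searched on both strands, and no match overlapped another. *Dkk1* lies on the minus strand with its window at chr19:30549447-30549746, *Dkk2* on the plus strand with its window at chr3:132085042-132085341, and *Kremen2* on the minus strand with its window at chr17:23745780-23746079.
Dkk1: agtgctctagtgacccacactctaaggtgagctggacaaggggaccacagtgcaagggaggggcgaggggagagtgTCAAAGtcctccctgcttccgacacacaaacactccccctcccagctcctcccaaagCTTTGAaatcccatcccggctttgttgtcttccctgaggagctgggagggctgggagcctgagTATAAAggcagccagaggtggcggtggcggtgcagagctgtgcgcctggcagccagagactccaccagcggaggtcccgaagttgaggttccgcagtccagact
Dkk2: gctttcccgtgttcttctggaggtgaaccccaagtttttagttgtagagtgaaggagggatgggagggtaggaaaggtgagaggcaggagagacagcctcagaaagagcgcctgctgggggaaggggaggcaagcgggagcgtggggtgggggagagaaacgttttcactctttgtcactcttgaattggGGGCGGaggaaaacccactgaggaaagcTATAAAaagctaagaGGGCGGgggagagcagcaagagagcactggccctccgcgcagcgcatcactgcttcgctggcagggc
Kremen2: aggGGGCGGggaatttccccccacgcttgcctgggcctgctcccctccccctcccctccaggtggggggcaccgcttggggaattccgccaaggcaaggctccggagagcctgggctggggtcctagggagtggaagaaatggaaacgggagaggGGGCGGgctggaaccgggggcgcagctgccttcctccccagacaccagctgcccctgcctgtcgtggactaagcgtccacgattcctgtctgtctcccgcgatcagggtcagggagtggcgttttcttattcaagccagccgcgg
The *Dkk1* window held CTTTGA with its first base at -117 from the start site, its reverse complement TCAAAG at -174, and TATAAA at -54. These positions count from the RefSeq start, which for *Dkk1* lies 169 bases downstream of the start in the gene models used for counting, so that its CTTTGA and TATAAA matches lie inside the gene as counted. The 2 starts were 4 bases apart for *Kremen2* and identical for *Dkk2*. The *Dkk2* window held TATAAA at -32 and GGGCGG at -60 and -17. The *Kremen2* window held GGGCGG at -247 and -95 and neither of the other motifs. Among 32851 promoter windows of this length, 16% held CTTTGA, 13.6% TATAAA and 35.7% the GC box on either strand. The GC content was 60.7% for *Dkk1*, 57.7% for *Dkk2* and 67% for *Kremen2*, against a median of 52.7% over all windows. A match is a run of letters and not a shown binding site.

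Levels are given as FPKM, fragments per kilobase per 1e6 scaled counts, with the kilobases taken from the exon length in the deposited table, because this unit allows genes of different length to be compared. At E13.5 the means were 17.2 ± 2.67 FPKM (SD, n = 3) for *Dkk3*, 16.3 ± 3.05 for *Dkk2*, 8.89 ± 1.70 for *Kremen1*, 6.09 ± 3.03 for *Kremen2*, 5.22 ± 1.65 for *Dkk1* and 0.144 ± 0.113 for *Dkk4*. *Dkk2* and *Dkk3* lay within each other's spread at that stage, and so did *Dkk1* and *Kremen2*. At P0 the order was *Dkk3* at 40.6 ± 8.79 FPKM, *Kremen1* at 29.3 ± 4.50, *Dkk2* at 5.11 ± 0.363, *Dkk1* at 3.94 ± 2.06, *Kremen2* at 1.21 ± 0.659 and *Dkk4* at 0.357 ± 0.580. *Dkk4* was the lowest of the 6 in the mean at each stage. Across the 5 stages, 4 of the 6 genes changed in edgeR's quasi-likelihood test with Benjamini-Hochberg adjustment over 22151 tested genes. Of all tested genes 59.1% did so, and the share of the 6 is close to that background.

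**Figure D1:**
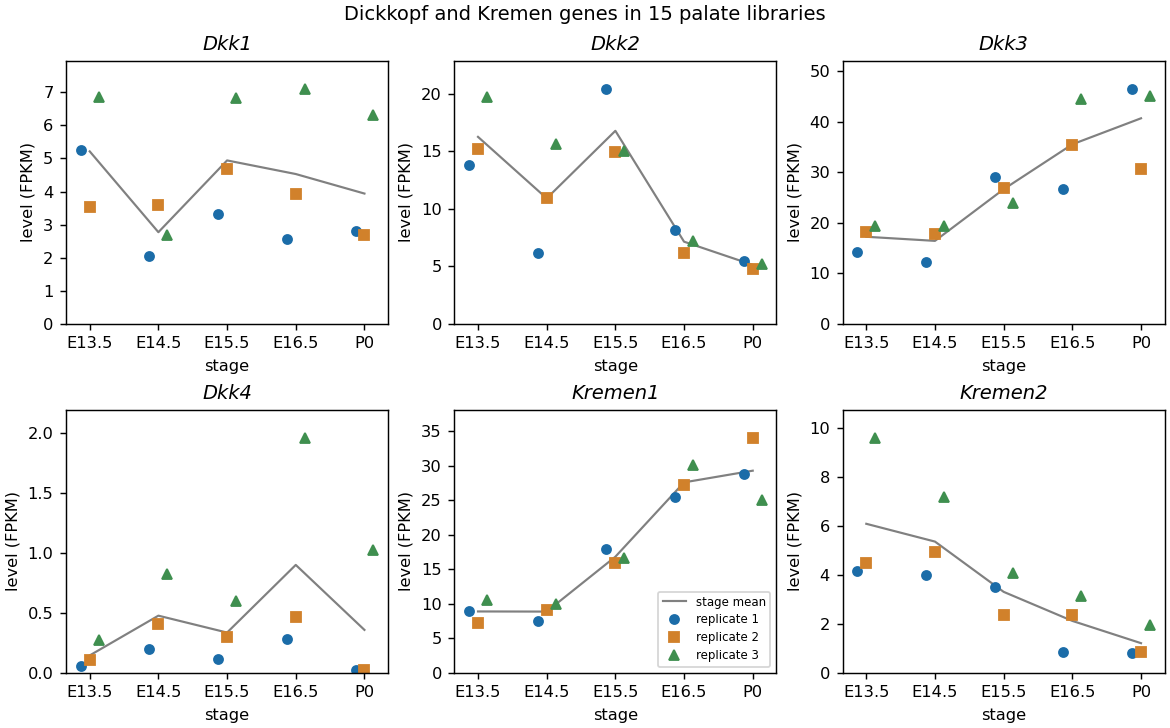
Level of each Dickkopf and Kremen gene in FPKM (y axis, from 0, scaled per gene) at the 5 stages (x axis), with each library as a point, its shape and colour giving the replicate number, and the stage mean as a line. *Kremen1* climbs from means of 8.89 at E13.5 to 29.3 at P0, *Kremen2* falls from 6.09 to 1.21, and *Dkk4* stays below 2 FPKM in every library.

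*Dkk1* encodes the founding Dickkopf antagonist, which binds LRP6 and is required for head development. The gene (ENSMUSG00000024868.8) lies on the minus strand at chr19:30545863-30549665 with 4 exons. Its level in replicates 1, 2 and 3 was 5.25, 3.55 and 6.85 FPKM at E13.5, and 2.03, 3.59 and 2.68 FPKM at E14.5. It was 3.33, 4.67 and 6.83 FPKM at E15.5, 2.57, 3.92 and 7.10 FPKM at E16.5, and 2.81, 2.69 and 6.31 FPKM at P0. The stages overlapped each other, and within E16.5 and P0 the library numbered 3 lay well above the other two. No stage contrast passed, and the p across stages was 0.371 (edgeR's quasi-likelihood test, adjusted). The fold change from E13.5 to E14.5 was -0.91 on the log2 scale with a standard error (SE) of 0.44 and an adjusted p of 0.335 (unadjusted p 0.0596). From E14.5 to E15.5 it was 0.84 (SE 0.44, adjusted p 0.176), and from E13.5 to P0 it was -0.41 (SE 0.44, adjusted p 0.443).

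*Dkk2* encodes an LRP5 and LRP6 ligand that inhibits Wnt signalling or activates it depending on the cell and on Kremen. The gene (ENSMUSG00000028031.6) lies on the plus strand at chr3:132085292-132180304 with 4 exons. Replicates 1, 2 and 3 had 13.8, 15.2 and 19.7 FPKM at E13.5, and 6.15, 10.9 and 15.7 FPKM at E14.5. They had 20.4, 14.9 and 15.002 FPKM at E15.5, 8.11, 6.13 and 7.15 FPKM at E16.5, and 5.43, 4.72 and 5.19 FPKM at P0. Every E13.5 and E15.5 library was above every E16.5 and P0 library. The E14.5 libraries overlapped those of E13.5, E15.5 and E16.5 but lay above every P0 library. From E14.5 to P0 the log2 change was -1.09 (adjusted p 0.00461, edgeR's quasi-likelihood test). From E13.5 to P0 *Dkk2* fell 3.18-fold, a log2 change of -1.67 (SE 0.28, adjusted p 0.000303, edgeR's quasi-likelihood test), and from E15.5 to P0 it fell by 1.71 on the log2 scale (adjusted p 0.00239).

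The step of *Dkk2* from E15.5 to E16.5 was a fall of 2.35-fold (log2 change -1.23, SE 0.27, adjusted p 0.0483, edgeR's quasi-likelihood test), with no overlap between the stages. This call held in 3 of 15 fits that each left out a library (those without E14.5 replicate 1, E14.5 replicate 3 or P0 replicate 3). The adjusted p then ranged from 0.0334 to 0.160, and it was 0.106 on the 6 libraries of the contrast alone. Over all tested genes, 312 passed in this step in the main edgeR fit and 0 on those 6 libraries. With a library left out, 0 to 969 genes passed, and the log2 change of *Dkk2* stayed between -1.35 and -1.07. In order of mean level, E15.5 at 16.8 ± 3.13 FPKM and E13.5 at 16.3 ± 3.05 did not differ beyond their spread (adjusted p 0.919), nor did E14.5 at 10.9 ± 4.76 and E13.5 (log2 change -0.58, adjusted p 0.317). The next stages down, E16.5 at 7.13 ± 0.992 and P0 at 5.11 ± 0.363, did not overlap, but their difference did not pass (log2 change -0.48, adjusted p 0.528). The rise from E14.5 to E15.5 was 0.62 on the log2 scale (adjusted p 0.105). It was 0.97 with an adjusted p of 0.0165 without E14.5 replicate 3, the highest E14.5 library. From E14.5 to E16.5 the log2 change was -0.61 (adjusted p 0.0792), and it passed without E14.5 replicate 1, the lowest E14.5 library (-0.90, adjusted p 0.00792). The summed level of the palate mesenchyme markers was 725 to 878 CPM at E15.5 and 390 to 601 CPM at E16.5, but 0 of the 10 passed in that step (median log2 change -0.67). Their median was -0.65 from E13.5 to E15.5, where 1 of 10 fell and *Dkk2* was at 0.05. The part of these cells in the course of *Dkk2* was not tested.

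*Dkk4* encodes an LRP6-binding antagonist best known from the epithelial placodes of skin appendages. The gene (ENSMUSG00000031535.7) lies on the plus strand at chr8:22624043-22627547 with 4 exons, and it was near the limit of detection. Replicates 1, 2 and 3 held 5, 10 and 24 fragment counts at E13.5, 17, 35 and 77 at E14.5, and 9, 26 and 54 at E15.5. They held 17, 22 and 105 counts at E16.5 and 1, 1 and 31 at P0. Both P0 libraries with 1 count were below the floor of 3 counts, which corresponded to 0.0421 to 0.131 CPM over the libraries (counting error only). *Dkk4* was highest in the library numbered 3 at each of the 5 stages, from 0.357 CPM at E13.5 to 2.57 CPM at E16.5.

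The difference across stages had an adjusted p of 0.345 for *Dkk4* (edgeR's quasi-likelihood test). It was 0.0280 without P0 replicate 3, which held 31 counts beside 1 and 1 in the others, and 0.683 without E16.5 replicate 3. E16.5 lay above E13.5 without overlap, by 2.63 on the log2 scale (SE 1.19, adjusted p 0.0838), which passed in DESeq2 (2.67, adjusted p 0.0441), on the 6 libraries alone (2.65, adjusted p 0.0497) and without P0 replicate 3 (2.66, adjusted p 0.0251). From E14.5 to P0 the log2 change was -0.53 (adjusted p 0.719), and without P0 replicate 3 it was -4.29 (adjusted p 0.0257). The summed level of 10 oral epithelium markers was also highest in the library numbered 3 at each stage, with 674 CPM against 297 and 350 CPM at E13.5, 2496 against 1162 and 1375 CPM at E16.5, and 3469 against 1086 and 2333 CPM at P0. So was that of 5 tooth enamel and dentine markers, with 21.9 CPM against 3.598 and 7.43 CPM at P0, and that of the palate mesenchyme markers. Of the 22151 tested genes, 770 (3.48%) were highest in the library numbered 3 at all 5 stages. The part of these differences in the values of *Dkk4* was not tested.

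*Dkk3* encodes the divergent Dickkopf protein, which is also known as a tumour suppressor under the name REIC. The gene (ENSMUSG00000030772.6) lies on the minus strand at chr7:112116017-112159057 with 8 exons. Replicates 1, 2 and 3 had 14.2, 18.1 and 19.3 FPKM at E13.5, and 12.2, 17.7 and 19.2 FPKM at E14.5. They had 29.0, 26.9 and 23.9 FPKM at E15.5, 26.6, 35.4 and 44.5 FPKM at E16.5, and 46.4, 30.5 and 45.0 FPKM at P0. All libraries from E15.5 on were above all libraries of E13.5 and E14.5. *Dkk3* rose 2.36-fold from E13.5 to P0 (log2 change 1.24, SE 0.23, adjusted p 0.000610, edgeR's quasi-likelihood test), and 2.06-fold from E13.5 to E16.5 (log2 change 1.05, adjusted p 0.00264).

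Between neighbouring stages *Dkk3* rose from E14.5 to E15.5, 1.62-fold (log2 change 0.70, SE 0.22, adjusted p 0.0377, edgeR's quasi-likelihood test). The call held in 8 of 15 fits that each left out a library. It was lost without E13.5 replicate 2 (0.0502), E16.5 replicate 2 (0.0519), E15.5 replicate 3 (0.0660), E14.5 replicate 2 (0.0777), E15.5 replicate 1 (0.0940), E15.5 replicate 2 (0.0957) or E14.5 replicate 1 (0.168), these values being adjusted p. In order of mean level, E14.5 at 16.4 ± 3.68 FPKM and E13.5 at 17.2 ± 2.67 did not differ beyond their spread. E15.5 at 26.6 ± 2.53 and E16.5 at 35.5 ± 8.92 did not either (log2 change 0.42, adjusted p 0.297), nor did E16.5 and P0 at 40.6 ± 8.79 (0.20, adjusted p 0.769). The difference between P0 and E15.5, 0.61 on the log2 scale, missed the threshold (adjusted p 0.0664), and passed in DESeq2 (0.0396) and without P0 replicate 2 (0.0471). Markers of several cell types also moved from E14.5 to E15.5. In that step 9 of 11 osteoblast and osteocyte, 8 of 10 skeletal muscle, 5 of 6 nasal epithelium, 3 of 5 macrophage, 1 of 10 oral epithelium and 1 of 4 tested tooth markers rose, and 3 of 6 neuron and 1 of 10 palate mesenchyme markers fell. None of the cartilage, endothelium and erythroid markers passed. The summed skeletal muscle markers lay at 288 to 1281 CPM at E14.5 and 2081 to 5867 CPM at E15.5, the nasal epithelium markers at 25.7 to 59.5 and 102 to 669.9 CPM, and the macrophage markers at 73.1 to 90.9 and 138 to 144 CPM. Their part in the rise of *Dkk3* and *Kremen1* was not tested.

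*Kremen1* encodes a Kremen receptor that binds DKK1 and DKK2. The gene (ENSMUSG00000020393.16) lies on the minus strand at chr11:5191552-5261558 with 9 exons. Replicates 1, 2 and 3 had 8.93, 7.17 and 10.6 FPKM at E13.5, and 7.50, 9.12 and 9.99 FPKM at E14.5. They had 17.9, 15.9 and 16.6 FPKM at E15.5, 25.5, 27.2 and 30.1 FPKM at E16.5, and 28.9, 34.0 and 25.0 FPKM at P0. The values fell into a low pair of stages, a middle stage and a high pair, with no overlap between these levels. *Kremen1* rose 3.30-fold from E13.5 to P0 (log2 change 1.72, SE 0.16, adjusted p 8.27e-06, edgeR's quasi-likelihood test), which was the smallest adjusted p among the 6 genes.

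The rise of *Kremen1* came in the steps on either side of E15.5. From E14.5 to E15.5 it rose 1.90-fold (log2 change 0.92, SE 0.16, adjusted p 0.00256, edgeR's quasi-likelihood test), and this held in all 15 fits that each left out a library (adjusted p 0.00198 to 0.0163). From E15.5 to E16.5 it rose 1.64-fold (log2 change 0.71, SE 0.16, adjusted p 0.0492). That second call held in 3 of the 15 fits (without E13.5 replicate 2, P0 replicate 2 or P0 replicate 3), with adjusted p from 0.0348 to 0.207, although every E16.5 library was above every E15.5 library. In those 15 fits the log2 change of this step was 0.65 to 0.76, and 0 to 969 of all tested genes passed in it. In order of mean level, E14.5 at 8.87 ± 1.26 FPKM and E13.5 at 8.89 ± 1.70 did not differ (adjusted p 0.998), nor did E16.5 at 27.6 ± 2.28 and P0 at 29.3 ± 4.50 (0.09, adjusted p 0.865). E15.5, at 16.8 ± 0.998 FPKM, differed from both of these levels in tests over the longer spans (log2 change 0.92 from E13.5, adjusted p 0.00204, and 0.80 to P0, adjusted p 0.00592).

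*Kremen2* encodes the other Kremen receptor, which also binds DKK1 and DKK2. The gene (ENSMUSG00000040680.9) lies on the minus strand at chr17:23741197-23745833 with 10 exons. Replicates 1, 2 and 3 had 4.18, 4.51 and 9.59 FPKM at E13.5, and 3.98, 4.93 and 7.18 FPKM at E14.5. They had 3.50, 2.36 and 4.06 FPKM at E15.5, 0.864, 2.36 and 3.13 FPKM at E16.5, and 0.823, 0.833 and 1.97 FPKM at P0. All E16.5 and P0 libraries were below all E13.5 and E14.5 libraries, while E15.5 overlapped E14.5 and E16.5. From E13.5 to P0 *Kremen2* fell 5.07-fold (log2 change -2.34, SE 0.52, adjusted p 0.00220, edgeR's quasi-likelihood test), the largest change among the 6 genes in that comparison, and from E14.5 to P0 it fell 4.47-fold (log2 change -2.16, adjusted p 0.00362).

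No step of *Kremen2* between neighbouring stages passed. In order of mean level the steps were from 6.09 ± 3.03 FPKM at E13.5 to 5.36 ± 1.64 on the next day (log2 change -0.18, adjusted p 0.905, edgeR's quasi-likelihood test) and on to 3.31 ± 0.867 at E15.5 (-0.70, adjusted p 0.310). The later steps led to 2.12 ± 1.15 FPKM at E16.5 (-0.64, adjusted p 0.470) and 1.21 ± 0.659 FPKM at P0 (-0.82, adjusted p 0.564). Over 2 or more steps *Kremen2* fell from E13.5 to E16.5 (-1.52, adjusted p 0.0245), a call that was lost without E13.5 replicate 3 (-1.04, adjusted p 0.112) or E16.5 replicate 1 (-1.11, adjusted p 0.0919). It also fell from E14.5 to E16.5 (-1.34, adjusted p 0.0431), which held in 6 of 15 fits that each left out a library, those without any 1 of the E13.5 libraries, E15.5 replicate 2, E16.5 replicate 3 or P0 replicate 3, and the adjusted p reached 0.162 without E16.5 replicate 1. The fall from E15.5 to P0 missed the threshold (-1.46, adjusted p 0.0545) and passed in DESeq2 (-1.45, adjusted p 0.0188) and without E13.5 replicate 3 (0.0471), E16.5 replicate 1 (0.0275) or P0 replicate 3 (-1.999, adjusted p 0.0212). Like *Dkk4*, *Kremen2* was highest in the library numbered 3 at all 5 stages, as were the oral epithelium, tooth and palate mesenchyme marker sums, and their part in its values was not tested. From E13.5 to P0 these sums moved in different directions. The oral epithelium sum was 297 to 674 CPM at E13.5 and 1086 to 3469 CPM at P0. The tooth sum was 0.662 to 1.77 CPM at E13.5 and 3.598 to 21.9 CPM at P0. The palate mesenchyme sum was 847 to 1436 CPM at E13.5 and 456 to 587 CPM at P0, lower at birth as *Kremen2* was. What part any of them had in the fall of *Kremen2* was not tested.

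Genes overlap the Kremen genes on the opposite strand, a small nuclear RNA gene in *Kremen1* and the antisense gene *9530082P21Rik* in *Kremen2*, and none of the 6 shares bases with a gene on its own strand. Per the file header the counts were made by strand, and whether the library kit keeps strand is not given in the sources used here. In the counts, 298 genes with at least 90% of their exon bases inside exons of 1 gene on the opposite strand (the other gene having a mean of at least 10 CPM) held a median of 0.122% of the count per base of that gene, where a library without strand would give about equal counts per base. *Kremen2* and *9530082P21Rik* share 200 exon bases. *9530082P21Rik*, described because of its position, was at 0.366 to 0.891 CPM at E13.5, 0.469 to 0.716 CPM at E14.5, 1.25 to 1.68 CPM at E15.5, 1.84 to 2.60 CPM at E16.5 and 2.41 to 4.01 CPM at P0, with 26 to 118 counts per library. Its P0 libraries were above its E13.5 libraries, the opposite order to *Kremen2*, while between E13.5 and E14.5 the ranges of both genes overlapped.

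Read together by contrast, the calls among the 6 genes were as follows, and the contrasts share libraries wherever they share a stage. From E13.5 to P0, 4 of 6 passed, 2 higher and 2 lower, where 56.6% of all tested genes passed (29.8% higher and 26.8% lower). From E13.5 to E14.5, 0 of 6 passed, where 0.00903% of all genes did. An unadjusted p under 0.05 in edgeR's quasi-likelihood test was reached by 0 of 6, and by 3538 of the 22151 tested genes. In DESeq2 0 of 6 passed, where 1000 of all tested genes did. From E14.5 to E15.5, 2 of 6 passed, both higher, where 26.1% of all genes passed (12.7% higher and 13.4% lower). From E15.5 to E16.5, 2 of 6 passed, *Kremen1* upward and *Dkk2* downward, where 1.41% of all genes passed (1.03% higher and 0.379% lower). Both of these had an adjusted p close to the threshold. From E16.5 to P0, 0 of 6 passed (0.352% of all genes, 0.190% higher and 0.163% lower). Here 0 of 6 had an unadjusted p under 0.05, where 2602 of all tested genes did. In DESeq2 0 of 6 passed, where 663 genes did.

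**Figure D2:**
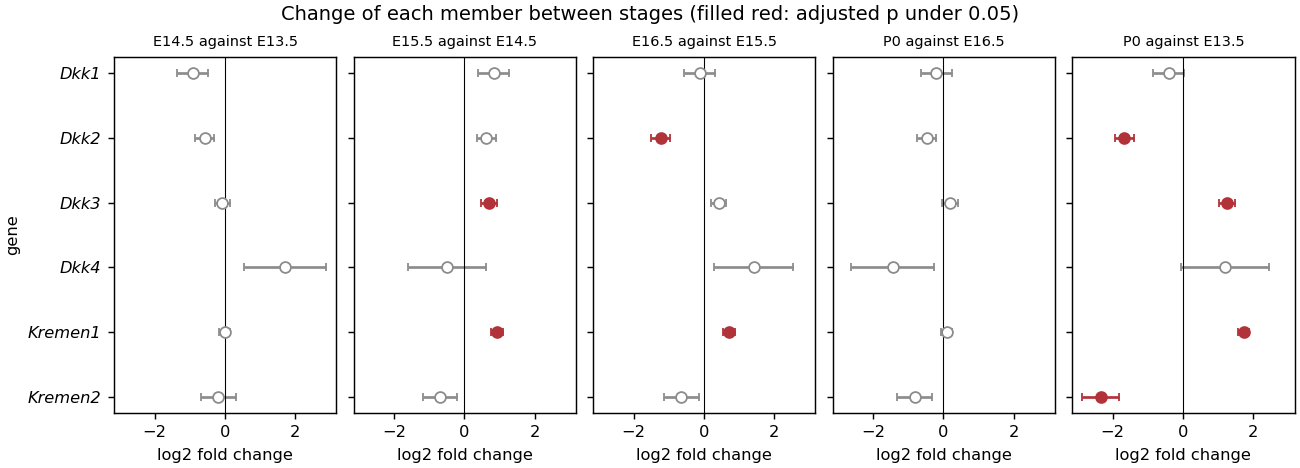
Log2 fold change (x axis) of each gene (y axis) in 5 stage contrasts (panels, later against earlier stage), with bars of 1 standard error from edgeR and filled red points where the adjusted p was under 0.05. From E13.5 to P0 *Kremen1* (1.72) and *Dkk3* (1.24) lie to the right and *Dkk2* (-1.67) and *Kremen2* (-2.34) to the left, and the bars of *Dkk4* are the widest.

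Over the longer spans the same 4 genes carried the calls. From E13.5 to E16.5, 4 of 6 passed, where 48.2% of all genes did (25.2% higher and 23.0% lower). From E14.5 to P0, 4 of 6 passed, where 56.7% of all genes did (28.9% higher and 27.9% lower). In both, *Kremen1* and *Dkk3* rose and *Dkk2* and *Kremen2* fell. The 3 of 6 that passed from E14.5 to E16.5 were *Kremen1* and *Dkk3*, higher, and *Kremen2*, lower, where 46.2% of all genes passed (23.4% higher and 22.8% lower). From E13.5 to E15.5, 1 of 6 passed, *Kremen1*, where 22.9% of all genes did (13.7% higher and 9.18% lower), and *Dkk3* missed at 0.63 (adjusted p 0.0606), passing without E16.5 replicate 1 (0.0380), P0 replicate 2 (0.0405) or E14.5 replicate 1 (0.0488). From E15.5 to P0, *Kremen1* rose and *Dkk2* fell, 2 of 6, where 22.9% of all genes passed (12.2% higher and 10.8% lower). The median log2 change of the 6 genes from E13.5 to P0 was 0.39, against 0.03 over all tested genes, and from E14.5 to E15.5 it was 0.66 against 0.03. It was -0.01 from E14.5 to P0, -0.18 from E15.5 to P0 and -0.34 from E16.5 to P0. The members moved both ways, and the median from E13.5 to P0 is the midpoint of *Dkk1* (-0.41) and *Dkk4* (1.19), which did not pass.

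The makeup of both families shifted over the stages. Summed over the 4 Dickkopf genes, the level was 38.8 ± 6.58 FPKM at E13.5 and 50.04 ± 10.6 FPKM at P0, within each other's spread. *Dkk2* was 41.8 ± 0.786% of this sum at E13.5, a share that stood at 34.7 ± 5.57% at E14.5 and 34.3 ± 3.76% a day later. It was 15.6 ± 5.27% at E16.5 and 10.5 ± 1.76% at P0. *Dkk3* was 44.4 ± 3.88% at E13.5, with 54.6 ± 4.61% at E14.5 and 54.7 ± 2.94% at E15.5. Its share was 73.7 ± 3.16% at E16.5, and by P0 it was 81.2 ± 3.398%. The ratio of *Dkk3* to *Dkk2* per length thus went from 0.08 ± 0.14 on the log2 scale at E13.5 to 2.97 ± 0.24 at P0, and the P0 and E16.5 libraries (1.71 to 3.12) lay above the libraries of the 3 earlier stages (-0.03 to 0.99). *Dkk1* made up 13.4 ± 3.33% at E13.5 and 7.73 ± 2.97% at P0, and *Dkk4* 0.347 ± 0.218% and 0.628 ± 1.00%.

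The Kremen sum was 14.98 ± 4.54 FPKM at E13.5 and 20.1 ± 1.63 FPKM at E15.5, and it reached 30.5 ± 3.98 FPKM at P0. *Kremen2* made up 39.3 ± 7.88% of it at E13.5 and 37.2 ± 4.003% at E14.5. On the next day, E15.5, its share was 16.3 ± 3.35%, and it was 6.90 ± 3.22% at E16.5 and 4.15 ± 2.73% at P0. Its share was 31.9% or more in all libraries of E13.5 and E14.5 and 19.6% or less in all later ones. The log2 ratio of *Kremen1* to *Kremen2* per length was 0.64 ± 0.48 at E13.5 and 0.76 ± 0.24 at E14.5. It was 2.38 ± 0.36 at E15.5 and 3.89 ± 0.87 on the day after, and it was 4.72 ± 0.92 at P0. Dickkopf RNA outweighed Kremen RNA at every stage, 2.67 ± 0.452 to 1 at E13.5 and 1.69 ± 0.538 to 1 at P0. Most of the Dickkopf sum at P0 was *Dkk3*, with a mean of 40.6 FPKM. There *Dkk2*, *Dkk1* and *Dkk4* had means of 5.11, 3.94 and 0.357 FPKM, each below the Kremen sum of 30.5 FPKM. These shares and ratios restate the levels above on a common scale and were given no test of their own.

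**Figure D3:**
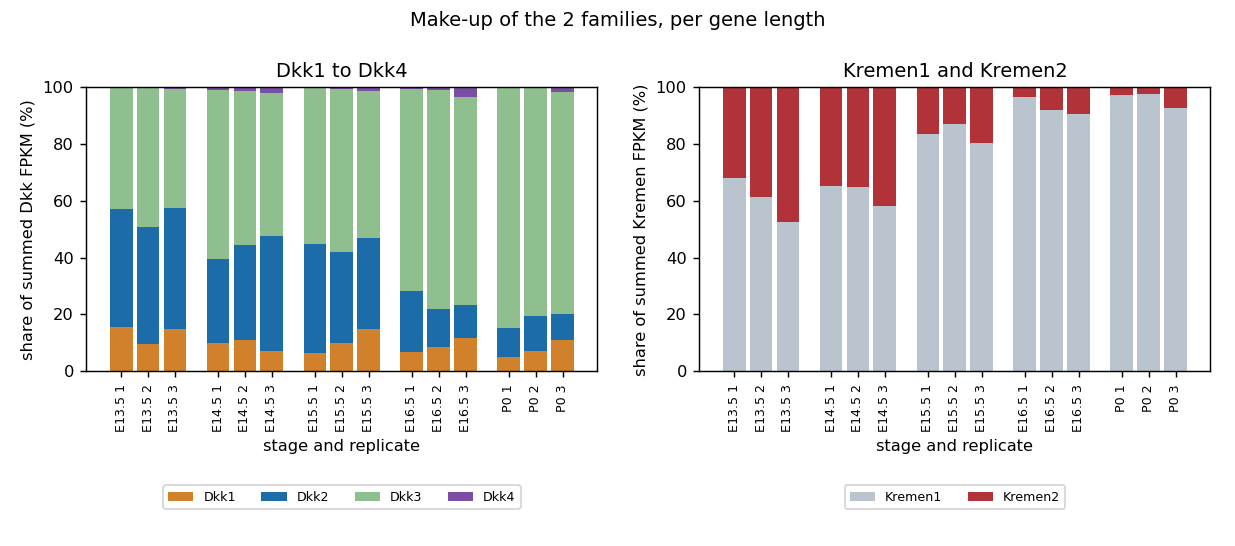
Share of each gene in the summed FPKM of the Dickkopf genes (left) and of the Kremen genes (right) (y axis, percent), for each of the 15 libraries (x axis, stage and replicate number). *Dkk3* takes up a mean of 44.4% of the Dickkopf sum at E13.5 and 81.2% at P0, and *Kremen2* shrinks from 39.3% to 4.15% of the Kremen sum.

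Of the 3 co-receptor genes counted, 1 rose and 1 fell from E13.5 to P0. *Lrp6* had 15.04, 10.9 and 12.7 FPKM in replicates 1, 2 and 3 at E13.5 and 4.93, 11.1 and 6.29 FPKM at P0, so that 1 P0 library overlapped E13.5. It fell by 0.79 on the log2 scale (SE 0.25, adjusted p 0.0170, edgeR's quasi-likelihood test), a call lost without E13.5 replicate 1 (0.0651), P0 replicate 1 (0.0896) or P0 replicate 3 (0.0820), and its adjusted p across the 5 stages was 0.0728. The *Lrp6* call was also lost on the 6 libraries of the contrast alone (0.0842) and with the libraries numbered 3 left out (0.133). *Lrp5* had 14.5, 9.15 and 13.8 FPKM at E13.5 and 14.4, 13.2 and 10.6 FPKM at P0, with a log2 change of 0.03 (SE 0.19, adjusted p 0.912). *Lrp4*, which binds sclerostin and Dickkopf proteins, had 6.26, 6.41 and 6.72 FPKM at E13.5 and 8.42, 7.54 and 9.27 FPKM at P0 without overlap. It rose by 0.38 (SE 0.14, adjusted p 0.0310), a call lost without any 1 of the E13.5 libraries (0.0551 to 0.0955) or P0 replicate 3 (0.0816). With no filter (0.0689) or the libraries numbered 3 left out (0.108) the *Lrp4* call was lost as well.

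The rest of the Wnt pathway was counted from 5 lists of 45 genes, of which 44 were tested. Across the 5 stages 25 of them changed, where 59.1% of all tested genes did. From E13.5 to P0, 12 rose and 14 fell, where 29.8% of all genes rose and 26.8% fell, with a median log2 change of -0.07 against 0.03 over all genes. Both counts are close to the background share. Among 10 other secreted antagonists 6 rose and 3 fell (median 1.46). The largest changes were *Sfrp4*, a secreted Frizzled-related protein, at 3.13 (adjusted p 0.000107) and *Wif1*, which binds Wnt ligands directly, at 2.84 (adjusted p 0.00114). The 3 that fell in edgeR's quasi-likelihood test were *Sfrp2* at -1.49 (adjusted p 0.00262), *Frzb* at -1.03 (0.0489) and *Sfrp1* at -0.96 (0.00862). *Sfrp2* had the highest mean of the 10 at both stages, 189 FPKM at E13.5 and 67.0 FPKM at P0. In the same order *Sfrp1* was at 64.2 and 33.0 FPKM, *Sfrp4* at 0.592 and 5.20 FPKM, and *Wif1* at 5.46 and 39.1 FPKM. *Sost*, which encodes the LRP-binding antagonist sclerostin, rose by 1.25 (adjusted p 0.0121, edgeR's quasi-likelihood test). That call was lost without E13.5 replicate 1 (0.0552) or E13.5 replicate 2 (0.0541), and on the 6 libraries of the contrast alone (0.0758). The level of *Sost* was low and highest at E16.5, with means of 0.422 CPM at E13.5, 3.87 CPM at E16.5 and 1.00 CPM at P0. From E16.5 to P0 its log2 change was -1.94 (adjusted p 0.0484).

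Among 12 Wnt response genes 2 rose and 6 fell from E13.5 to P0 (median -0.54), where 29.8% of all tested genes rose and 26.8% fell. The 8 of 12 that passed are close to the background share of 56.6%. Those that rose in edgeR's quasi-likelihood test were *Tcf7* at 1.69 (adjusted p 0.00378), from a mean of 5.49 to 17.8 FPKM, and *Bambi* at 0.91 (adjusted p 0.0382). *Lef1*, a transcription factor of the pathway, fell by 2.03 (adjusted p 0.00259) and *Axin2*, a feedback inhibitor, by 1.00 (adjusted p 0.00491), in edgeR's quasi-likelihood test. *Sp5*, a target transcription factor, fell by 1.78 (adjusted p 0.0402), a call that held in 9 of 15 fits that each left out a library. It was lost without E13.5 replicate 3 (0.119), P0 replicate 1 (0.106), P0 replicate 2 (0.102), E13.5 replicate 2 (0.0632), E16.5 replicate 1 (0.0528) or E14.5 replicate 3 (0.0503), given as adjusted p. The *Sp5* call held in 4 of 8 other settings. It was lost with upper-quartile scaling (0.0522) and a mean of at least 1 CPM (0.0505). The same held on the 6 libraries of the contrast alone (0.0970) and with the libraries numbered 3 left out (0.0529). Among 13 tested canonical ligands 2 rose and 2 fell (median -0.04), with *Wnt10a* at 2.33 (adjusted p 0.00230) and *Wnt9b* at -2.56 (adjusted p 0.00571). Among 6 R-spondin and Lgr genes, which raise the number of Wnt receptors on the cell surface, 1 rose and 2 fell, with *Lgr6* at 2.65 (adjusted p 4.33e-05) and *Rspo2* at -1.75 (adjusted p 0.00168). *Dkk1*, itself a known Wnt target, was at -0.41 beside these response genes and did not pass. From E14.5 to E15.5, the step at which *Kremen1* and *Dkk3* rose, 7 of the 44 pathway genes rose and 4 fell (median 0.29 against 0.03 over all genes). This is close to the background of 26.1% of all tested genes (12.7% higher and 13.4% lower). The count of 11 was 7 without E14.5 replicate 1, E15.5 replicate 2 or E15.5 replicate 3, and 6 without E14.5 replicate 2. Calls over all tested genes also fell in these fits, from 5773 to 2320, 2975, 3010 and 3259 in the order given.

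**Figure D4:**
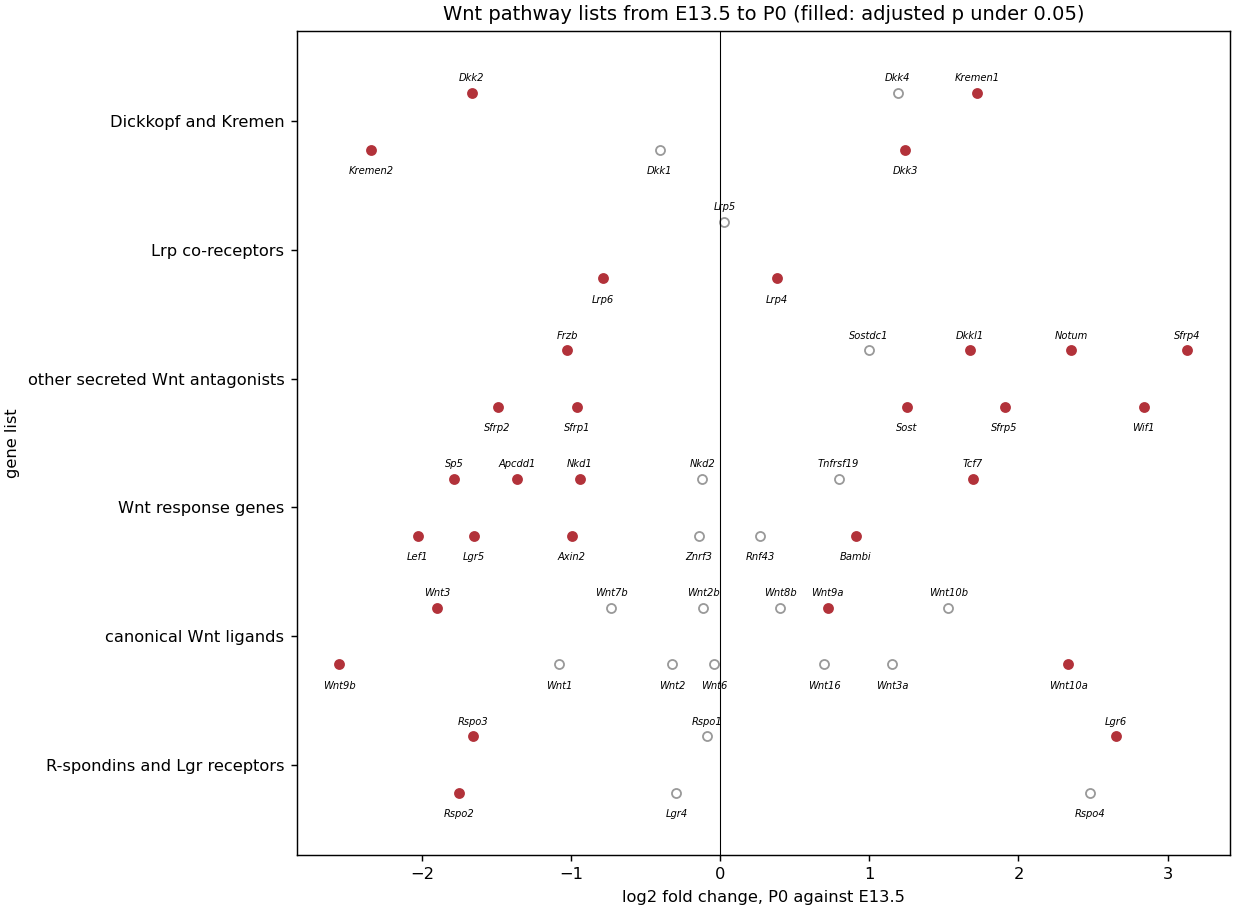
Log2 fold change from E13.5 to P0 (x axis) of the 6 Dickkopf and Kremen genes (top row) and of 44 tested genes of 5 Wnt pathway lists (rows), filled red where the adjusted p was under 0.05 in edgeR. Points are set at 2 heights within a row for legibility. Among the other secreted antagonists *Sfrp4* (3.13) and *Wif1* (2.84) lie furthest to the right, and among the response genes *Lef1* (-2.03) lies furthest to the left.

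The genes whose log2 CPM followed each member most closely over the 15 libraries were taken from 13538 candidates with a mean of at least 5 CPM. For *Kremen1* they were *Olfml2b*, *C1s1* and *Ltf*, each with a Pearson r of 0.98. For *Dkk3* they were *Tnn*, *Cd44* and *Cd109*, each with an r of 0.95. *Tnn*, which encodes tenascin-W, went from a mean of 19.3 CPM at E13.5 to 335 CPM at P0, and *Cd44*, the hyaluronan receptor, from 21.8 to 122 CPM. For *Kremen2* they were *Tfdp1* (0.97), *Nop58* (0.96) and *Tll1* (0.96), and for *Dkk2* they were *Dab2* (0.94), *Tmem230* (0.93) and *Gas2* (0.93). For *Dkk1* they were *Actn1* (0.89), *Gja1* (0.85) and *Gli1* (0.85), of which *Gli1*, a target of Hedgehog signalling, was at 92.8 CPM at E13.5 and 63.2 CPM at P0. *Dkk4*, with a mean under 1 CPM, was not compared.

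High values of r were common for the genes with a strong course over the stages. The 95th percentile of r over the candidates was 0.93 for *Kremen1*, 0.88 for *Kremen2*, 0.84 for *Dkk3*, 0.75 for *Dkk2* and 0.51 for *Dkk1*. With Spearman's rho in place of Pearson's r, 2 of the 3 genes were shared for *Kremen2*, 1 for *Dkk1* and *Dkk3*, and 0 for *Dkk2* and *Kremen1*. Among the members, *Dkk3* and *Kremen1* had an r of 0.90 over the 15 libraries, *Dkk2* and *Kremen2* 0.71, and *Kremen1* and *Kremen2* -0.77. *Dkk1* had an r of 0.10 with *Kremen1* and 0.35 with *Kremen2*. These values describe libraries that share their stage, depth and cell makeup.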

How the data were processed

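RNA of pooled palates was sequenced in 15 libraries, and the authors deposited 1 table of fragment counts per gene for 54232 genes, with no normalization. Per the file headers the counts were made with featureCounts 2.0.1 on GENCODE M18, counting read pairs on the reverse strand. The submitters' processing notes name the build mm10 and cutadapt 3.4, HISAT2 2.2.1, SAMtools 1.12, Bowtie2 and FastQC 0.11.9. Symbols for 54079 genes were taken from GENCODE M21, in which 97.5% of the 54165 genes with a shared identifier had identical positions, so positions are given on GRCm38. Between libraries of a stage, counts differed far beyond sampling noise, so no library was a duplicate of another of its stage. Libraries of different stages were not compared in this way.

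Stages were taken from the labels. Genes were filtered with edgeR's filterByExpr (minimum count 10), which kept 22151 genes and all 6 members, and then scaled by TMM. In edgeR 4.0.16, run under R 4.3.3, each stage had 1 coefficient (common biological coefficient of variation 0.332). The quasi-likelihood test was run across the stages and for all 10 pairs of stages, with Benjamini-Hochberg adjustment over all tested genes and a threshold of 0.05. CPM and FPKM use the TMM-scaled totals, and FPKM the exon length in the table. Log2 CPM used a prior count of 2. The procedure was tested on simulated data.

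Named were the 6 members, *Lrp4*, *Lrp5*, *Lrp6*, *Axin2*, *Lef1* and *Sost*, per pathway list the 2 genes with the largest change past the threshold from E13.5 to P0, and the 3 genes most like each member with a mean of at least 1 CPM. The secreted antagonists that fell and the Wnt response genes that rose from E13.5 to P0 were added after the data were seen. The members and lists were chosen with earlier results of these data known. Tried instead were DESeq2 1.42.0, other scaling in edgeR (size factors as in DESeq2, or upper quartile), no filter, a mean of at least 1 CPM, fits to only the 6 libraries compared, a replicate block, Spearman's rho and leaving out each library. Leaving out the libraries numbered 3 at every stage was added after the data were seen.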

Additional observations from a re-analysis of the deposited data

How the results depend on the processing

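Among the 6 genes and 10 pairs of stages there were 22 calls in edgeR's quasi-likelihood test, and 0 reversed under any alternative. All 4 calls from E13.5 to P0 held under every alternative run. Of the 22, DESeq2 kept 22, DESeq2's size factors 21, upper-quartile scaling 19, no filter 19 (37998 genes), a filter at a mean of 1 CPM 21 (16520 genes) and the 6 libraries of a contrast 18. Leaving out 1 library kept 18 to 22, and leaving out the libraries numbered 3 at every stage, chosen after seeing the data, kept 18. The latter ended the calls for *Dkk2* from E14.5 to P0 (-0.69, adjusted p 0.0908) and *Dkk3* from E14.5 to E15.5 (0.96, adjusted p 0.0561). It also ended those for *Dkk2* and *Kremen1* from E15.5 to E16.5, and it added 4 calls. The adjusted p of *Dkk4* across stages was lower, at 0.0271.

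From E15.5 to E16.5 the count of 2 members was 1 with DESeq2's size factors and with the replicate block. It was 0 with upper-quartile scaling, no filter, the 6 libraries and the libraries numbered 3 left out. Over all tested genes, 312 passed in this step in the main edgeR fit, 303 with DESeq2's size factors and 422 with the replicate block. With upper-quartile scaling 287 passed and with no filter 218. On the 6 libraries 0 passed, and 0 with the libraries numbered 3 left out. From E13.5 to E15.5 the count of 1 was 2 with DESeq2, a mean of at least 1 CPM, the 6 libraries and the replicate block, *Dkk3* being the added gene. From E15.5 to P0 the count of 2 was 4 in DESeq2, where 6500 of all tested genes passed against 5080 in the main edgeR fit. The Wnt pathway count of 11 from E14.5 to E15.5 was 17 in DESeq2 and on the 6 libraries. Over all tested genes that step had 5773 calls in the main edgeR fit, 7208 in DESeq2 and 6569 on the 6 libraries. The cause of these shifts was not tested.

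Leaving out each library in turn gave 4 to 5 members across stages, 1 to 3 from E14.5 to E15.5, 0 to 2 from E15.5 to E16.5, 1 to 2 from E13.5 to E15.5, and 6 to 14 pathway genes from E14.5 to E15.5. Over all tested genes these fits called 2320 to 6035 from E14.5 to E15.5 and 0 to 969 from E15.5 to E16.5. Upper-quartile scaling moved the median of all genes from E14.5 to E15.5 to 0.16 on the log2 scale, against 0.03, and from E14.5 to P0 to 0.16, against 0.02.

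The labels do not say that a replicate number marks a shared litter or day. Of 30 same-numbered pairs of libraries, 9 had deviations from their stage means correlated above 0.1 (range -0.30 to 0.55). Several of the higher values were between libraries numbered 3, with 0.55 (E13.5 and E14.5), 0.48 (E15.5 and P0) and 0.47 (E16.5 and P0). Other pairs numbered 3 were lower, such as -0.10 (E14.5 and E16.5), and E15.5 and P0 numbered 1 were at 0.54. What the libraries numbered 3 share was not tested. Of 15 libraries, 7 correlated best with their own number, and the numbers were not taken as pairs. The replicate block kept 21 of 22 calls, losing *Kremen1* from E15.5 to E16.5 (adjusted p 0.0540). It added *Dkk3* from E13.5 to E15.5, *Dkk4* from E13.5 to E16.5 (0.00879) and *Kremen2* from E15.5 to P0 (0.00911), and *Dkk4* passed across stages (0.0311). Counts were lowest for *Dkk4*, at 1 in the P0 libraries of 41.2 M and 37.3 M total counts and 31 in that of 21.5 M. The part of depth in these values was not tested.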
